A study of Mus musculus with 6 samples.

Results

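GATA4 and GATA6 were mapped in mouse XEN cells by CUT&RUN, and the regions described here are those called in exactly 2 of the 3 GATA4 libraries and in none of the 3 GATA6 libraries. All 6 lists of called regions were merged wherever regions overlapped or touched, which gave 201994 merged regions, of which 4504 (2.23%) met this rule. The members were chosen by the calls themselves, so their number, their signal and the lack of an overlapping GATA6 call are given as a description and carry no test. A call means that a block of stacked fragments passed the caller's threshold in that library, and the lack of a call does not show that a factor was absent. Of the 4504 regions, 3122 were called in GATA4 replicate 1, 2924 in replicate 2 and 2962 in replicate 3. Replicates 1 and 2 alone shared 1542, replicates 1 and 3 shared 1580 and replicates 2 and 3 shared 1382.

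In CUT&RUN an antibody brings a nuclease to the protein of interest inside permeable cells, and the short pieces of DNA that it cuts free are sequenced. The study profiled unperturbed XEN cells with an antibody to either factor. All 6 libraries were labelled with the line 3F2. Its mice of origin carry a doxycycline-inducible cassette of reprogramming factors at Col1a1 (TetO-OKSmCh), the M2rtTA transactivator at Rosa26 and an Oct4-GFP reporter. By the labels, both groups share these alleles and differ in the antibody. The methods of the study also name the line 3F6 and give fewer replicates than the labels, and nothing states that the libraries came from separate cultures, so the spread between them may be technical. A difference of line between libraries cannot be told apart from that spread. No library with a non-specific antibody entered the calls. The cell type was not checked against expression, since no RNA was measured in these libraries.

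XEN cells are stem cells of the extra-embryonic endoderm, the derivative of the primitive endoderm of the blastocyst that forms the yolk sac and lays down its thick basement membrane. GATA4 and GATA6 are zinc finger transcription factors that set up this lineage. Both recognise the same short element, GATA flanked by A or T on one side and a purine on the other, and can bind it far from genes as well as near them.

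The windows below show what such regions look like at the level of sequence. Each reaches 100 bp to either side of the midpoint of the maximum signal of the stronger call, on the plus strand of GRCm38 (mm10), read from the RefSeq assembly. They are the strongest 6 members with, and the strongest 2 without, a GATA hexamer in the window, ranked by total signal, among regions that overlap no annotated UTR. Each is named by its nearest protein-coding gene. Capitals mark the GATA hexamers, which are AGATAA or AGATAG and also TGATAA or TGATAG, on either strand.
Tldc1, chr8:119792328-119792528: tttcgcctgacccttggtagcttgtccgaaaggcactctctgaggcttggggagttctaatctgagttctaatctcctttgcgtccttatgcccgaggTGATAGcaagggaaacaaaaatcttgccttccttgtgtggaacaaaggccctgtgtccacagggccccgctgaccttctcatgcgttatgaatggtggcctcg
Basp1, chr15:25089745-25089945: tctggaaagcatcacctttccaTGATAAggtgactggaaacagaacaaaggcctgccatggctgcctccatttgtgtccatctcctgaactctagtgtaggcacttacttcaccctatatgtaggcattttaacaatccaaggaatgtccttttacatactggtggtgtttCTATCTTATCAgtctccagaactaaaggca
Afmid, chr11:117832070-117832270: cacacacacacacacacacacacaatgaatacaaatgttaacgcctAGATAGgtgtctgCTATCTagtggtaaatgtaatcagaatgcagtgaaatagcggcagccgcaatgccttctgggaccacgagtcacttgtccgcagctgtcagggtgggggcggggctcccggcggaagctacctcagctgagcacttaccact
Manbal, chr2:157377845-157378045: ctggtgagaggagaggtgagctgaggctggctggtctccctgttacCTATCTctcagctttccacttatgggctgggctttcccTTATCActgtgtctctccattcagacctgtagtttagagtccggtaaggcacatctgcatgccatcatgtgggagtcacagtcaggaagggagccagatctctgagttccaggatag
Foxn3, chr12:99638210-99638410: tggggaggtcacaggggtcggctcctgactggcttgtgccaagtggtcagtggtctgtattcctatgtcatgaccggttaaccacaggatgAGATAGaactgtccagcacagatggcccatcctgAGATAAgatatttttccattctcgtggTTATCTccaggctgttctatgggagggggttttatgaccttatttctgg
Immt, chr6:71831715-71831915: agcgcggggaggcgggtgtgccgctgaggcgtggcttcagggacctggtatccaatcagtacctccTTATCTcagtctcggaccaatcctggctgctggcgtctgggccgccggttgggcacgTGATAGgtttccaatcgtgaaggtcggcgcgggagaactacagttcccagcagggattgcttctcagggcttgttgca
Fosb, chr7:19308092-19308292: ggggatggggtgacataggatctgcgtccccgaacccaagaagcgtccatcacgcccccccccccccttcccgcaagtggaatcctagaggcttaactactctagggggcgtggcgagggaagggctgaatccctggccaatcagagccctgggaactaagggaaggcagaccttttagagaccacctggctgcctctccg
Dlgap4, chr2:156726655-156726855: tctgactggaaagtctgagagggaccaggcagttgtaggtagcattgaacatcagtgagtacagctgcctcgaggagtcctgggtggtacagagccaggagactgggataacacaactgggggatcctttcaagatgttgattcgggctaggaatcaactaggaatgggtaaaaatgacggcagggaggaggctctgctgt

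The intergenic Tldc1 window has 1 hexamer, whose centre lies 1 bp from the centre of the window. The Basp1 window, also intergenic, has 3, but the nearest lies 74 bp out, and a pair of them overlaps at its far end. The Foxn3 window has 3, the nearest at 6 bp. The Manbal window, in an intron, has 2, the nearest at 13 bp. The promoter windows of Afmid, an enzyme of tryptophan breakdown, and Immt, a protein of the mitochondrial inner membrane, have 2 each, with the nearest at 38 and 26 bp. The windows at an exon of Fosb and an intron of Dlgap4 have none.

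The calls behind these regions rested on few fragments. The maximum signal, the largest number of fragments stacked at a position, had a median of 4 in each of the 3 GATA4 libraries over the members called there. It ran from 2 to 32 in replicate 1, from 2 to 31 in replicate 2 and from 2 to 15 in replicate 3, and 75.8%, 76.7% and 78.3% of members had a maximum of 5 or less. The whole lists had the same median of 4. Since the deposited signal is not scaled for depth, regions were compared by the percentile of their total signal within their own list. Members had median percentiles of 52.6, 52.7 and 51.2 in replicates 1, 2 and 3, so they lay in the middle of each list. Regions called in 1 GATA4 library and no other had medians between 37.0 and 38.6, and regions called in all 3 GATA4 libraries and no GATA6 library between 72.2 and 73.2. The 3 GATA4 lists held 49597, 46646 and 48397 regions and the 3 GATA6 lists 46484, 42446 and 44539; the labels state a planned number of reads, but the files give no read totals.

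The regions were short and their calls mostly coincided. Their median width was 635.5 bp, with a middle 50% from 507 to 791 bp, and together they covered 3.00 Mb. The calls of the 2 libraries shared a median of 276 bp, which was 85.0% of the shorter call. The maxima of the 2 calls lay a median of 121 bp apart, and in 45.2% of members they were within 100 bp of each other. At the edges of the rule, 6 members were joined by calls that touch without sharing a base and 195 by calls that share under 50 bp. Another 29 members had a GATA6 call that ended within 20 bp of them, at the closest 1 bp away. Just outside the rule, 18 of the 2880 regions called in 2 GATA4 libraries and 1 GATA6 library overlapped the GATA6 call by 20 bp or less.

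The first question was whether these regions carry the sequence that GATA factors bind, which the rule did not use. A GATA hexamer lay in 2143 of the 4504 windows (47.6%, exact 95% binomial interval 46.1 to 49.1). In windows of the same length 2 kb to either side the share was 34.0% (33.0 to 35.0), a difference of 13.6 percentage points. Over all 201994 merged regions 40.5% of windows and 36.1% of flanks held one. Such intervals cover counting error over regions only, and regions are not replicates. A control made of the same letters in another order (ATAGAA or ATAGAG and also TTAGAA or TTAGAG, on either strand) was found in 38.1% of member windows and 39.6% of their flanks.

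The same share was then taken for every pair of libraries, over the regions called in exactly that pair and in no other library. There are 15 such pairs, 3 of GATA4 libraries, 3 of GATA6 libraries and 9 mixed. The GATA4 pairs had hexamer shares of 50.5% (replicates 1 and 2), 46.0% (1 and 3) and 46.2% (2 and 3). The 9 mixed pairs lay between 37.9% and 42.4%, and the 3 GATA6 pairs between 35.7% and 40.0%. Every GATA4 pair was thus above every other pair, while the flanks of the 3 kinds overlapped, at 32.4% to 35.6%, 33.3% to 36.1% and 34.3% to 35.7%. The mean of the GATA4 pairs was 47.5% and that of the other 12 pairs 40.1%, a difference of 7.49 percentage points. In a two-sided exact permutation test over the 20 ways to name 3 of the 6 libraries GATA4, this gave p = 0.05, the smallest p the design allows. Adjusted over the 4 measures tested in this way (Benjamini-Hochberg) it was p = 0.1 by the same exact test, which misses 0.05. The difference was 5.91 points with windows of 50 bp and 4.42 points with windows of 250 bp to either side. It was 13.9 points when each list was cut to the 50% of regions with the higher total signal, and 11.99 points without GATA4 replicate 3.

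**Figure D1:**
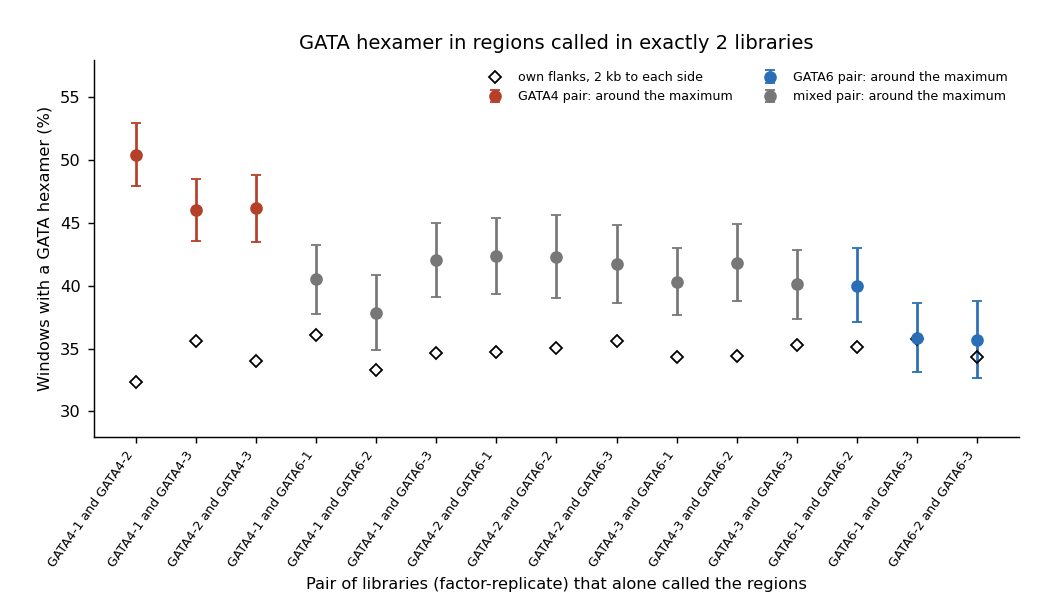
Share of windows of 100 bp to either side of the maximum with a GATA hexamer (vertical axis, percent, starting at 28) for regions called in exactly the pair of libraries named on the horizontal axis. Circles are windows at the maximum with exact 95% binomial intervals over regions and diamonds are the flanks of the same regions; the 3 GATA4 pairs sit between 46.0% and 50.5%, above the 12 others.

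The hexamers were concentrated at the maxima. Within 100 bp of the midpoint of the maximum, members had 3.68 GATA hexamers per kb, against 2.48 per kb at 800 to 1000 bp, a ratio of 1.48. Regions called in 1 library of each factor had a ratio of 1.22, and regions called in 2 GATA6 libraries and no GATA4 library a ratio of 1.02. Regions called in all 3 GATA4 libraries and no GATA6 library had 2.12. Among members, 810 windows (17.98%) held at least 2 hexamers, against 8.13% of flanks, and 231 (5.13%) held at least 3, against 1.58%. The ratio of window to flank was 1.399 for at least 1 hexamer, 2.21 for at least 2 and 3.25 for at least 3. As differences these were 13.6, 9.86 and 3.55 percentage points. The ratios were 1.18, 1.52 and 1.89 in the mixed regions, 1.06, 1.09 and 1.23 in the regions of 2 GATA6 libraries and 1.77, 4.76 and 9.13 in those of all 3 GATA4 libraries.

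**Figure D2:**
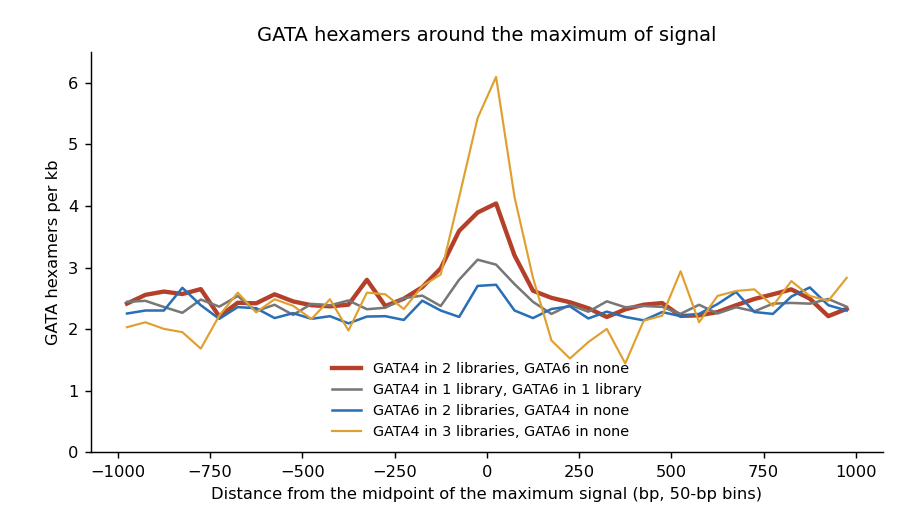
GATA hexamers per kb (vertical axis) against the distance from the midpoint of the maximum signal in bp (horizontal axis, bins of 50 bp), for 4 classes of region. The line of the members peaks at 4.04 per kb at the centre, between the regions of all 3 GATA4 libraries, which peak at 6.10, and the mixed regions, which peak at 3.13.

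The share was next set against the number of libraries of each factor that called a region. Away from promoters, that is with the maximum over 1 kb from any annotated transcription start site (TSS), 52.0% of the 3724 members held a hexamer (50.4 to 53.7). Regions called in 2 GATA4 libraries together with 1, 2 or 3 GATA6 libraries had 55.2%, 53.5% and 47.9%. With 1 GATA4 library the values were 43.3% for no GATA6 library and 44.1%, 44.0% and 37.7% for 1, 2 and 3 of them. With all 3 GATA4 libraries they were 71.3%, 69.3%, 70.0% and 70.5%. At each number of GATA6 libraries the share away from promoters was higher with 2 GATA4 libraries than with 1, and higher again with all 3. Without the exclusion of promoters, regions of 2 GATA4 libraries with 0, 1, 2 and 3 GATA6 libraries had shares of 47.6%, 44.1%, 35.6% and 26.3%, and 17.3%, 31.8%, 46.6% and 58.5% of them lay at promoters. These classes come from the same 6 lists and no test was made between them.

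**Figure D3:**
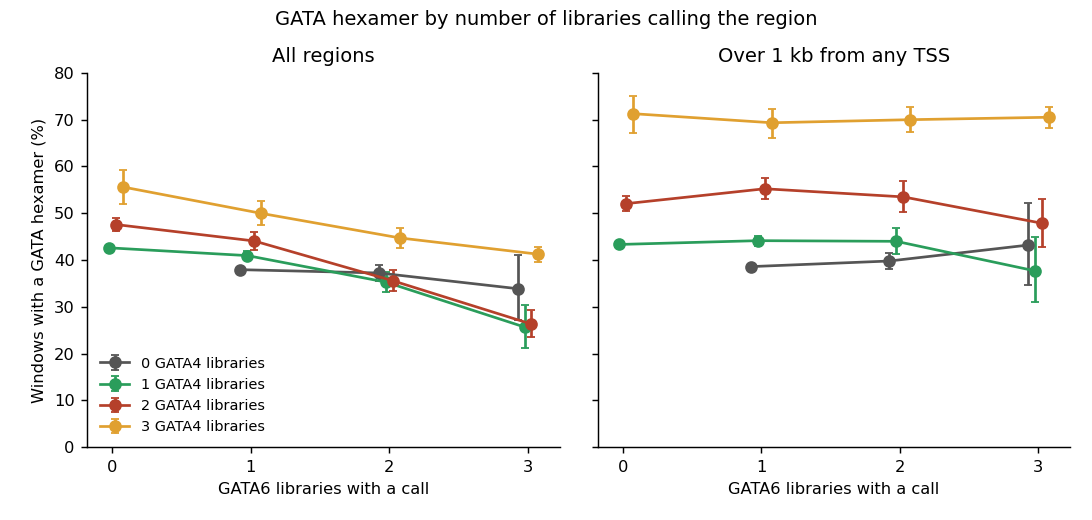
Share of windows with a GATA hexamer (vertical axis, percent) against the number of GATA6 libraries with a call (horizontal axis), with 1 line for each number of GATA4 libraries and exact 95% binomial intervals over regions. The left panel holds all regions and the right panel those over 1 kb from any TSS, where the members, at 2 GATA4 and 0 GATA6 libraries, stand at 52.0%.

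Among the members themselves the hexamer share depended on where they lay. In promoters, within 1 kb of a TSS, 205 of 780 windows held a hexamer (26.3%, 23.2 to 29.5), less than the 31.5% of their own flanks. Introns stood at 52.6% (50.3 to 54.95), intergenic DNA at 52.1% (49.7 to 54.5) and the 174 exonic members at 45.4% (37.9 to 53.1), each above its flanks of 33.2%, 36.2% and 33.0%. Promoter members had a mean GC content of 56.2%, against 43.8% for the rest. Low shares in promoters were not particular to members. Over all merged regions promoter windows stood at 24.7% and their flanks at 31.1%. In regions of all 3 GATA4 libraries and no GATA6 library these were 17.8% and 28.3%. By total signal, the weakest 25% of members stood at 45.6%, the next 2 classes of 25% at 42.2% and 49.2%, and the strongest 25% at 53.3% (50.3 to 56.2). Members whose maxima lay within 50 bp of each other had 48.5%, close to the 50.6% and 49.9% of those over 50 to 100 and over 100 to 200 bp apart, and those over 200 to 500 bp apart had 44.0%. Members with at least 50% repeat-masked bases in the window were 396, and 50.3% of them held a hexamer.

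**Figure D4:**
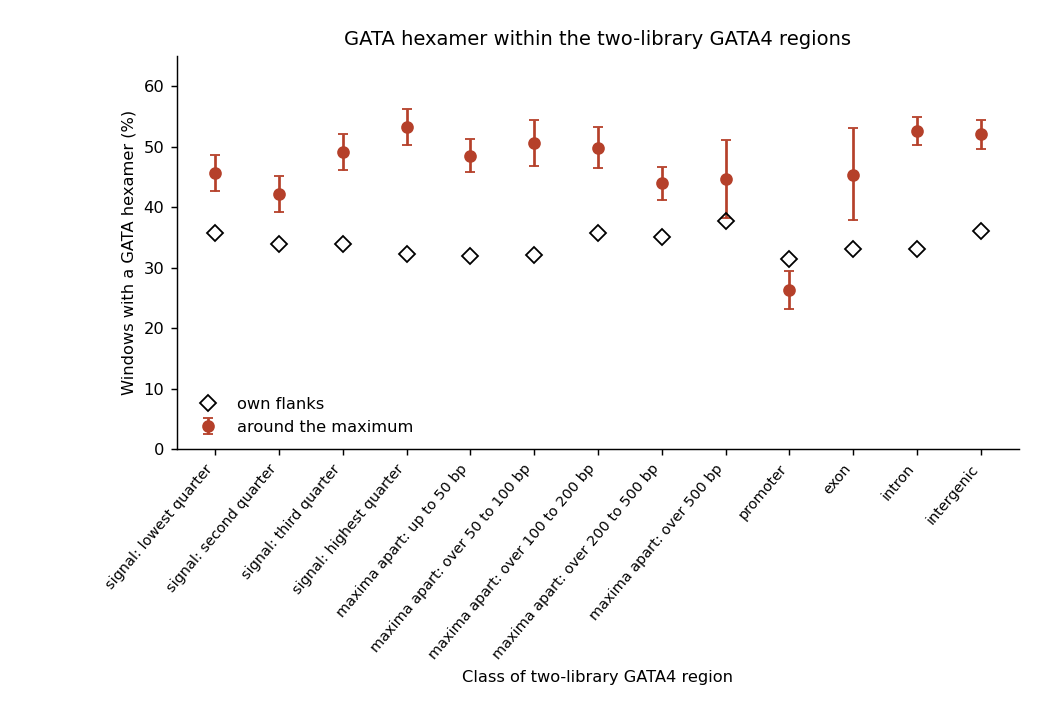
Share of member windows with a GATA hexamer (vertical axis, percent) by rank of total signal in 4 classes of equal size, by distance between the 2 maxima and by annotated feature (horizontal axis), with exact 95% binomial intervals over regions; diamonds are the flanks. Promoters, at 26.3%, are the class below its own flanks.

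By position, 780 members (17.3%, 16.2 to 18.5) lay at promoters, 40.7% in introns, 38.1% between genes and 3.86% in exons, and the median distance to the nearest TSS was 10696 bp. Over all 201994 merged regions these shares were 10.0%, 41.6%, 44.9% and 3.52%, and the median distance was 20186 bp. The intron and exon shares of the members were thus near those of all merged regions. Promoter shares of the 3 GATA4 pairs were 18.9%, 16.3% and 16.7%. The mixed pairs ran from 11.4% to 16.9% and the GATA6 pairs from 10.7% to 13.7%, so the GATA4 and mixed pairs overlapped. The mean difference of 3.69 points between GATA4 pairs and the others gave p = 0.15 in the same exact permutation test (0.2 adjusted). The difference was 2.29 points with promoters taken as 0.5 kb (exact permutation p = 0.15) and 4.97 points with 2.5 kb (exact permutation p = 0.05). With the stronger 50% of each list it was 1.81 points (exact permutation p = 0.65), and the promoter share of the members was 26.9%. Mean GC content of the windows was 46.0% over the GATA4 pairs and 45.4% over the others, a difference of 0.530 points (exact permutation p = 0.45). It ran from 0.282 points without GATA6 replicate 1 to 1.60 points without GATA4 replicate 3. A p above 0.05 does not show that promoter share or GC content is alike between the kinds of pair.

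Other short elements were sought in the same windows, on either strand. None of these strings contains another, although they can overlap in part. For SOX proteins, the HMG-box factors that include SOX17 and SOX7 of the endoderm, ACAATG or ACAAAG lay in 33.1% of member windows and 26.6% of flanks. The 3 GATA4 pairs stood between 32.7% and 33.4%, the mixed pairs between 27.1% and 31.5% and the GATA6 pairs between 28.5% and 31.9%, a separation seen after the values were known and not tested. The SOX element was present in 37.4% of the members with a GATA hexamer and in 29.3% of those without. This split was not tested, had no control string and was not repeated away from promoters. Promoter members held fewer GATA hexamers and had a higher GC content than the rest. For AP-1, the dimer of FOS and JUN proteins, TGANTCA lay in 8.57% of windows and 5.74% of flanks. For TEAD factors GGAATG lay in 12.9% and 10.6%, and for nuclear receptors AGGTCA lay in 13.5% and 11.7%. The GC-rich GGGCGG of SP and KLF factors lay in 9.61% and 3.10%, CCGGAA of ETS factors in 4.51% and 2.16%, and CACGTG, the E-box, in 3.26% and 2.11%. The forkhead strings TGTTTAC or TATTTAC lay in 6.84% and 6.77%, a gap of 0.0666 points. Over all merged regions the windows held the SOX element in 29.8%, AP-1 in 7.50%, TEAD in 11.7%, the nuclear receptor element in 12.3%, SP and KLF in 5.50%, ETS in 2.75%, the E-box in 2.54% and the forkhead strings in 6.75%.

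Chromosomes 8, 14 and 19, set apart because calls of every kind are dense on them in these same lists, held many members. They carried 5.18, 4.16 and 5.26 members per Mb, against 1.29 per Mb over the other autosomes together, a ratio of 3.71 for the 3 chromosomes combined. The ratio was 3.09 over all merged regions, 5.87 for the mixed pairs and 7.33 for the GATA6 pairs. In total 1512 members (33.6%) lay there. The GATA4 pairs had 28.5%, 36.6% and 35.7% on these chromosomes, below the 39.0% to 49.3% of the mixed pairs and the 43.2% to 52.1% of the GATA6 pairs. The mean difference was -11.0 points (33.6% against 44.6%; exact permutation p = 0.05, adjusted 0.1), and it was -16.9 points without GATA4 replicate 3. Without GATA6 replicate 1 or GATA6 replicate 3 it was -8.19 and -11.4 points, and the exact permutation p was 0.2 in both, above the smallest possible. Because the 3 chromosomes were picked from these same lists, the difference is a description and its p-values carry no support. The part that this uneven density has in the calls was not tested. On the 3 chromosomes 44.0% of members held a GATA hexamer, against 36.8% of flanks, and elsewhere 49.4%, against 32.6%. With those chromosomes left out, the GATA4 pairs stood at 47.4% to 52.5% and every other pair between 33.8% and 44.3%, so the hexamer shares did not overlap there either.

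**Figure D5:**
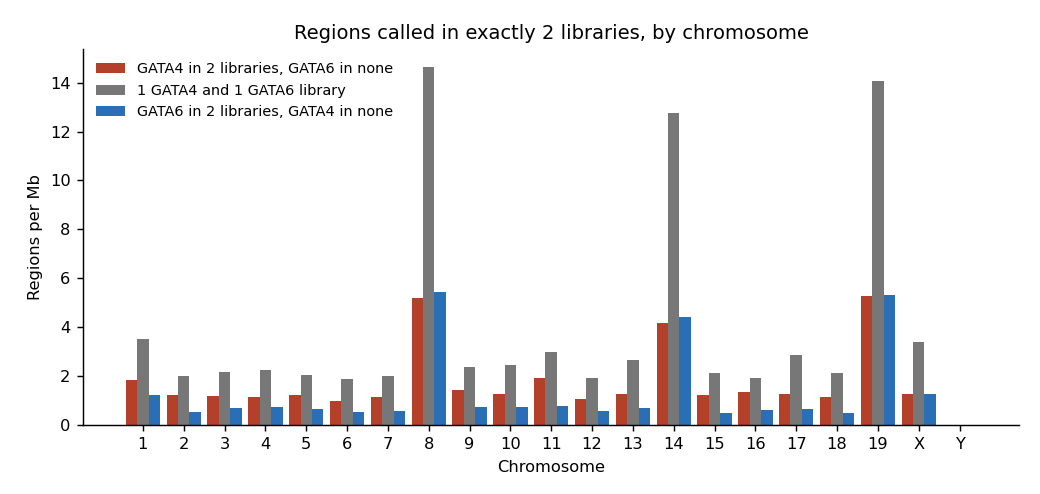
Regions per Mb (vertical axis) on each chromosome (horizontal axis) for the members (3 pairs of libraries), the mixed pairs (9 pairs together) and the GATA6 pairs (3 pairs). Chromosomes 8, 14 and 19 stand above the rest in all 3 classes, with 5.18, 4.16 and 5.26 members per Mb.

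The rule keeps regions that neither the third GATA4 library nor any GATA6 library overlaps, so calls lying close by were counted. The third GATA4 library had a call within 1 kb of 646 members (14.3%, 13.3 to 15.4). By library this was 12.9% where replicate 1 was the third library, 14.7% for replicate 2 and 15.3% for replicate 3. For comparison the same regions were moved 10 kb to either side. Moved copies that overlapped a call of the library in question were left out, here and in every move below. The copies that remained gave 9.55%, 8.46% and 8.03%, outside the intervals of the unmoved values. The comparison thus holds only for copies without an overlapping call, and no test was made. The GATA6 libraries had a call within 1 kb of 12.5%, 11.4% and 11.4% of members, against 7.37%, 7.28% and 7.03% after the move. Any of the 3 GATA6 libraries had one near 1111 members (24.7%), and 3118 (69.2%) had neither. Members with a GATA6 call within 1 kb held a GATA hexamer in 42.5% (39.6 to 45.5), and those without one in 49.2% (47.6 to 50.9). The flanks of these groups stood at 32.1% and 34.6%, differences of 10.4 and 14.6 points. Members with such a call lay more often at promoters (22.4% against 15.6%) and on the 3 chromosomes set apart above (43.3% against 30.4%). Hexamer shares of members were lower in both places, and the part of either in this gap was not tested. For regions called in 2 GATA6 libraries and no GATA4 library, the third GATA6 library lay within 1 kb of 8.95% to 10.0%, against 7.87% to 9.78% after the move, and these intervals overlapped. The GATA4 libraries had a call within 1 kb of 10.9%, 10.1% and 11.7% of those regions, against 7.77%, 8.45% and 9.27% after the move, which lie outside the intervals of the unmoved values.

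Genes were counted as near when a member lay within 50 kb of any of their TSSs, which held for 5646 of 21938 protein-coding genes (25.7%). No RNA was measured here, and nearness does not tie a region to a gene. Among 12 transcription factors of XEN cells and the primitive endoderm, 7 had a member near, as did 9 of 13 basement membrane genes, 8 of 18 endoderm receptors and secreted proteins, 3 of 12 AP-1 genes and 7 of 20 pluripotency genes. The mixed regions, 9973 in number, lay near 38.9% of all genes and near 7, 10, 11, 8 and 12 genes of the same lists. The 3256 regions of 2 GATA6 libraries lay near 16.8% of all genes and near 4, 4, 4, 5 and 10. The lists were chosen with earlier results of these data known, and their counts are given as a description.

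Among the transcription factors, Sox17, an HMG-box factor of the endoderm, had a member on its promoter. It lay at chr1:4496007-4497035, 23 bp from a TSS, held a GATA hexamer and had maximum signals of 3 in replicate 1 and 4 in replicate 3. A second member, at chr1:4479551-4480057, lay 13808 bp from a TSS with maxima of 7 and 4 in replicates 1 and 2. Gata4 itself had a member in its own intron at chr14:63246804-63247320, 1754 bp from a TSS, without a hexamer and with maxima of 3 and 4. This one was weak, at a mean percentile of 3.12, and the other Gata4 member, in an intron of a neighbouring gene 45500 bp away, stood at 42.6 and held a hexamer. Foxa2, a forkhead factor of the endoderm, had 1 intergenic member at chr2:148041282-148041983, 3625 bp from a TSS, with a hexamer and maxima of 4 and 6. Tead1, a partner of YAP and TAZ, had 1 in its own intron at 2760 bp, with a hexamer. Klf6, a zinc finger factor, had 2 intergenic members at 17440 and 36878 bp, both with a hexamer. Both members near Snai1, a repressor of epithelial genes, lay over 30 kb away at other genes and held no hexamer.

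The basement membrane list holds laminins, type IV collagens and the proteins that fold or link them. Lamb1, the laminin beta-1 chain, had the most with 3 members. A pair of them lay in its introns, at chr12:31281893-31282786 and chr12:31293359-31293821, with mean percentiles of 75.8 and 73.9 and a hexamer in each, while the other, 37053 bp away, had none. Nid1, a nidogen that links laminin to collagen, had 1 intronic member at chr13:13446726-13446985 with a hexamer and maxima of 9 and 6 in replicates 1 and 2. Serpinh1, the collagen chaperone HSP47, had 2 intergenic members 10154 and 12052 bp from its TSS, the nearer with a hexamer and the other with the higher maxima, 8 and 10. Hspg2 (perlecan) and Sparc, a secreted matrix protein, had 1 intergenic member each with a hexamer, at 24965 and 44963 bp. Nid2, Lamc1, Col4a1 and Col4a2 had 1 member each, none with a hexamer. Lama1, Fn1, P4ha1 and P4ha2 had no member within 50 kb.

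Among receptors and secreted proteins, Dab2, an endocytic adaptor of the extra-embryonic endoderm, had a promoter member at chr15:6388227-6389236, 13 bp from a TSS, with a hexamer and maxima of 8 in replicate 2 and 3 in replicate 3. Lrp2, the endocytic receptor megalin, had a member in an intron, 3035 bp from a TSS, at chr2:69582819-69583138, with a hexamer and maxima of 7 and 8, and another on its promoter at chr2:69585970-69586396 without one. Pdgfra, the receptor that marks the primitive endoderm, showed a like arrangement. Its promoter member at chr5:75154915-75155354 had no hexamer and a mean percentile of 23.6, and the member 7164 bp away, at chr5:75144941-75145224, had one. Fgfr2, a receptor for fibroblast growth factors, had an intronic member at chr7:130165281-130165691 with a hexamer, maxima of 8 and 9 and a mean percentile of 85.0. Afp, the alpha-fetoprotein of the yolk sac, had 2 small members next to each other 48143 and 47828 bp away, of which 1 held a hexamer. Rbp4, the carrier of retinol, and Plat, the tissue plasminogen activator, had 1 intergenic member each with a hexamer, and Bmper, a secreted regulator of BMP signalling, had 1 intronic member without.

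In the AP-1 list, Fosb had a member over an exon, Maff one on its promoter and Junb a pair 18570 and 40493 bp away, of which the farther held a hexamer. The members of Fosb and Maff held none. In the pluripotency list, each of the 7 genes had 1 member. Lin28a, an RNA-binding protein of early embryonic cells, had it on its promoter at chr4:134018043-134018481, with a hexamer and maxima of 5 in replicates 2 and 3. Tbx3, a T-box factor that is also active in the endoderm, had one 797 bp from a TSS at chr5:119669266-119670073, with a hexamer and maxima of 5 and 5. Esrrb, an orphan nuclear receptor, had one in its own intron at chr12:86480282-86481427, with a hexamer and a mean percentile of 81.2. The members near Utf1 and Dppa5a held a hexamer, and those near Tdgf1 and Klf5 did not.

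The 10 members with the highest mean percentile of total signal lay nearest to Tldc1, Tpst2, Basp1, Fosb, Afmid, Chka, Manbal, Foxn3, Znrd1as and Dlgap4, and 8 of them held a GATA hexamer. The highest, at chr8:119791608-119792804, lay 14012 bp from a TSS of Tldc1 and had maxima of 6 in replicate 1 and 8 in replicate 3, at percentiles 94.2 and 97.4. Tpst2, which sulfates tyrosines of secreted proteins, came next with a promoter member at chr5:112276280-112276781 and maxima of 11 and 10 in replicates 1 and 2. The third library had a call 209 bp away from it. Basp1 was only the nearest gene to the next, at chr15:25089594-25090383, since its TSS lay 323853 bp off. The Fosb member, at chr7:19307977-19309044, spanned 1068 bp with maxima of 6 and 8, and a GATA6 call lay 970 bp away. The promoter member of Chka, the choline kinase that starts phosphatidylcholine synthesis, at chr19:3851449-3851960, had the highest maxima of the 10, 12 and 13 in replicates 2 and 3, placed 11 bp apart. A GATA6 call lay 236 bp from it. In 7 of the 10 the nearest GATA6 call was over 1 kb away, which also held for 75.3% of all members.

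Members also came in runs, shown here at the genes with the most members. No number expected from the local density of calls was computed. Chromosomes 8 and 19, where the runs at Abce1 and Abcc2 lie, held 210 and 164 merged regions per Mb. The other autosomes, without chromosome 14, held 61.3 per Mb, and among them chromosome 1, where the run at Tpr lies, held 76.9. Within the Tpr run itself calls of every kind were denser, with 33 merged regions in 46.6 kb. Whether the runs follow the density of calls was not tested. Over all merged regions 55.4% were called in a GATA6 library, and a run picked for its members has fewer such regions by the rule, so the GATA6 counts below are a description. Tpr, which builds the nuclear basket of the nuclear pore, had 12 members within 50 kb of its TSSs, more than any other protein-coding gene, and its neighbour Odr4 had 10 of the same 12. All lay within chr1:150402109-150448721, a span of 46.6 kb that held 33 merged regions, of which 4 were called in a GATA6 library. Of these members 8 held a hexamer, and 4, 10 and 10 were called in replicates 1, 2 and 3, with maxima from 2 to 6. A similar run lay at Abce1, a factor of ribosome recycling, with its neighbours Anapc10 and Otud4, which had 8 members each. It had 8 members in 25.6 kb at chr8:79677252-79702894, with 3 hexamers among them, and 2 of its 20 merged regions were called in a GATA6 library. Around Abcc2, an exporter of organic anions with 10 members, and Entpd7 with 8, 15 members spread over 194 kb of chromosome 19, at chr19:43655734-43849312, and 80 of the 117 merged regions were called in a GATA6 library.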

How the data were processed

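CUT&RUN libraries for GATA4 and GATA6 (3 each per the labels) were read as the region lists deposited by the authors. Per the labels and the study's methods, reads were aligned to mm10 with Bowtie2 2.3.4.1, cleared of duplicates, poorly mapped and mitochondrial reads and the blacklist, and regions were called in each library with SEACR 1.3 at a numeric threshold, without normalization or a control. The values deposited by the authors are total and maximum signal (fragment coverage) per region, unscaled for depth. The authors' combined lists were not used here. The study's methods state that peaks absent from any replicate were dropped. By the labels, each member lacks a call in 1 GATA4 replicate and would be among those dropped.

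Lists were merged with Python 3.11.15, numpy 2.4.6 and pandas 2.3.3; intervals came from scipy 1.17.1. Features came from GENCODE M21 and sequence from GRCm38.p6, whose chromosomes contain every region. GATA motifs were sought within 100 bp of the midpoint of the maximum signal. Windows on chromosome 18 or overlapping a UTR were not shown. The libraries, not regions, were permuted. Genes were named if a listed gene had a member within 50 kb, if nearest to the 10 members of highest mean percentile of total signal, or if among the 5 genes with most members (7 with ties at 8). Functions were tested on simulated lists. The members, the gene lists and the 3 chromosomes set apart were chosen with earlier results of these data known. The regions near 1 listed gene are not reported here.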

Additional observations from a re-analysis of the deposited data

How the results depend on the processing

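No alternative reversed the sign of a difference between members and flanks or between kinds of pair. The number of members and the shares have no sign to reverse, so only their size is given. The number of members was 2992 without chromosomes 8, 14 and 19, 2355 with the 50% of each list of higher total signal, and 2128 to 5550 with 1 library left out; without a GATA4 library both others had to call a region. The hexamer difference between members and flanks was 11.0 points with 50 bp and 7.50 with 250 bp to each side, 10.8 around the midpoint of the region, 16.5 without the 3 chromosomes, 18.96 in the stricter lists and 12.8 to 19.9 with 1 library left out. The promoter share was 12.6% at 0.5 kb, 25.8% at 2.5 kb, 13.3% with protein-coding transcripts, 22.4% without the 3 chromosomes, 26.9% in the stricter lists, 18.7% in lists of equal length and 19.7% to 22.6% with 1 library left out. The share with a call of the third GATA4 library was 8.02% within 0.5 kb, 39.7% within 5 kb, 11.7% in the stricter lists and 14.6% to 15.9% with a GATA6 library left out; without a GATA4 library the third is not defined. The share with a GATA6 call was 14.3% within 0.5 kb, 61.8% within 5 kb, 21.1% without the 3 chromosomes, 18.1% in the stricter lists and 19.4% to 26.6% with 1 library left out.

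Between GATA4 pairs and the other pairs, the hexamer difference was 7.05 to 11.99 points and the difference on chromosomes 8, 14 and 19 -16.9 to -8.19 points with 1 library left out, where the exact permutation test cannot go below p = 0.1. Over the other alternatives the hexamer difference was 4.42 points (250 bp) to 13.9 points (stricter lists), with 5.91 points at 50 bp and 8.92 points away from promoters (chosen after seeing the data). Its p was the smallest allowed throughout, which cannot show stability. The promoter difference reached 0.05 at 2.5 kb alone, at 4.97 points, and was 1.81 points in the stricter lists. Correlations of same-numbered libraries were 0.00102, 0.00148 and 0.00118 (over merged regions, as deviations from the mean of the factor). Of the 6 libraries, 0 correlated best with its own number. Calls rested on few fragments and the origin of the cultures is not stated, so these values cannot exclude a pairing by replicate number. With labels exchanged within a replicate number as a block, the differences stayed 7.49, 3.69, 0.530 and -11.0 points by construction, and the exact permutation p were 0.125, 0.375, 0.625 and 0.125, where 0.125 is the smallest possible. Depth is unknown, and a median maximum of 4 fragments limits what a missing call can show.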
